A study of Mus musculus with 2 samples.

Results

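Amino acid transporter genes were examined in 2 cell fractions sorted from Peyer's patches, which are clusters of lymphoid follicles in the mouse small intestine. The members are all genes whose array name begins with Slc1a, Slc3a, Slc6a, Slc7a, Slc36a, Slc38a or Slc43a followed by a digit, which gave 66 genes on 120 probes out of 24813 named genes on the array. Of these, 62 encode carriers or carrier subunits and 4 are opposite-strand transcripts named after a carrier gene (names ending in os). A gene counts as measured where a probe was marked well above background by the scanner software on at least 1 array, and 43 of the 66 were measured (65.2%, against 61.4% of all named genes). The dimmest measured members read 19.9 (Slc36a3) and 20.6 (Slc6a19) on the negative array, and just outside lay a probe of Slc7a15 at 19.0.

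Both fractions came from C57BL/6 mice transgenic for an S100A4-GFP reporter, which marks cells by the S100a4 gene rather than by lineage. Cells were released from dissected patches by enzyme digestion and sorted into an S100A4-positive and an S100A4-negative fraction; age, sex and the number of mice or sorts are not given in the labels. Each fraction is 1 sample on 1 array of one slide, so no difference has a replicate check or a p-value, and a fixed size of 2-fold is used in place of a test. The comparison asks which carriers differ in signal between cells with and without the reporter. Signals are processed intensities on each array's own scale, with 75th percentiles of 445.9 (negative array) and 287.3 (positive array). Each log2 difference is S100A4-positive minus S100A4-negative after each array was centred on that percentile, with the software's error for single spots (± 0.20 for a typical gene). Where a gene was well above background on 1 array only, its fold is a lower bound ("at least"), taken against the higher of its own dim signal and the lowest signal well above background on that array (16.1 for the negative, 15.7 for the positive array).

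S100a4 itself read 1057 (negative array) and 119341 (positive array), 175-fold higher after centring. The fractions are mixtures, in which 9 of 9 B cell, 7 of 9 T cell, 10 of 10 proliferation and 8 of 10 enterocyte marker genes had signals at least 2-fold lower in S100A4-positive cells. All 10 macrophage and monocyte markers, the 7 measured of 8 dendritic cell markers and 7 of 8 innate lymphoid markers were at least 2-fold higher. In such bulk samples, fewer cells of a type and less RNA per cell cannot be told apart.

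Cells cannot make all amino acids, and carriers of the solute carrier (Slc) families bring them across the plasma membrane, the brush border of the gut and the lysosomal membrane. Some work as heterodimers, in which a heavy subunit carries a light, transporting subunit to the surface. Slc3a2, known as CD98, pairs with several Slc7 light subunits, among them the leucine carrier Slc7a5 and the cystine-glutamate exchanger Slc7a11, whereas Slc3a1 pairs with Slc7a9 in absorptive epithelium. Activated and dividing lymphocytes are known to raise CD98, Slc7a5 and the glutamine carrier Slc1a5. Many carrier genes are known targets of ATF4, the transcription factor of the amino acid response, which binds composite sites of the form TGATGNAA.

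Promoters are shown for 3 members of the heterodimer system, because the difference of Slc7a11 was among the largest here, because Slc7a7 is the other member with such a match, and because Slc3a2 is the heavy subunit that both use. The 250 bases before the annotated start were searched on both strands for TGATGNAA in RefSeq promoters on GRCm38.p6, which hold 48 of the 66 members. Capitals mark the matches. Of the 48 members, 2 had a match in a promoter (4.17%), against 3.91% of all 27025 genes.
Slc7a11, chr3:50443614-50443863, minus strand: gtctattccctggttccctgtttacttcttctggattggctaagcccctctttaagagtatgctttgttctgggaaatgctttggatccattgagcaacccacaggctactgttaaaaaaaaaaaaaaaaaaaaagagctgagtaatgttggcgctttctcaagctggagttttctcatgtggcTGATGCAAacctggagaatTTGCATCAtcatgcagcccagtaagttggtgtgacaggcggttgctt
Slc7a7, chr14:54417703-54417952, minus strand: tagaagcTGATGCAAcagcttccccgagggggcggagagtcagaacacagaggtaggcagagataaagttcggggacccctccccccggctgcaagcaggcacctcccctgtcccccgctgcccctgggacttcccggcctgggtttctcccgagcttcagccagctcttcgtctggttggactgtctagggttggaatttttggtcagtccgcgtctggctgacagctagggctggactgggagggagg
Slc3a2, chr19:8713898-8714147, minus strand: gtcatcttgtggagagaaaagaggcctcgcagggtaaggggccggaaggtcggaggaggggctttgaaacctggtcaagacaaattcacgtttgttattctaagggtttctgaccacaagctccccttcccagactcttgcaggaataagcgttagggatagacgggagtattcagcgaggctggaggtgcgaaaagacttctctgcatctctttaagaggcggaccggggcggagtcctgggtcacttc
The Slc7a11 promoter held 2 matches, on opposite strands, at 66 to 59 and 47 to 40 bases before the start. Only 13 of 32851 promoters (0.0396%) held 2 or more. Slc7a7 has 5 annotated promoters, and the one shown has its match 243 to 236 bases before the start. Another Slc7a7 promoter, not shown, has a match 141 to 134 bases before its own start. No match lies in the Slc3a2 window. The E-box CACGTG was found in 9 of the 48 members (18.8%, against 6.86% of all genes) and TGACNNNGC, the core of the antioxidant response element, in another count of 9 (18.8% against 11.5%). These matches are letters in a window and not binding sites.

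After centring on the 75th percentile, more member genes lay past 2-fold upward than downward. Of the 43 measured genes, 12 were at least 2-fold higher in the positive fraction (27.9%, against 21.4% of 15245 genes measured on the array) and 3 at least 2-fold lower (6.98%, against 17%). In either direction 15 lay past 2-fold, where 38.4% of all genes did, and the other 28 lay within it. Without the opposite-strand transcripts, 11 were higher and 3 lower. Of the 43 genes, 7 were seen on the negative array only (16.3%, against 7.56% of all measured genes). On the positive array only, 4 were seen (9.3%, against 7.49%). Each such gene was counted at its bound, which can be far smaller than the difference as read. With no filter on dim probes, 18 of the 66 genes were higher and 8 lower. Among the 32 members measured on both arrays the median log2 difference was 0.57, against 0.01 over all genes measured on both, and 18 lay above 0. With members seen on 1 array at their bounds the median was 0.06. The split between higher and lower depended on the scale: it was 12 to 8 with quantile normalization or the authors' deposited value table, 10 to 2 with normexp background correction, 8 to 13 with no scaling and 4 to 33 on the spike-in scale. The spike-in RNA gave 3.69-fold more signal on the S100A4-positive array, and scaling to it shifted the median of all genes by -2.52. Every direction given here is therefore relative to the 75th percentile, and of all members above 0 only Slc6a13, Slc6a7, Slc1a2 and Slc7a11 stayed above 0 on the spike-in scale. Among those past 2-fold upward, Slc3a2, Slc7a8, Slc7a4, Slc6a9, Slc36a4 and Slc36a3os changed sign there, and Slc6a12 and Slc6a2 were left with no fold.

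**Figure D1:**
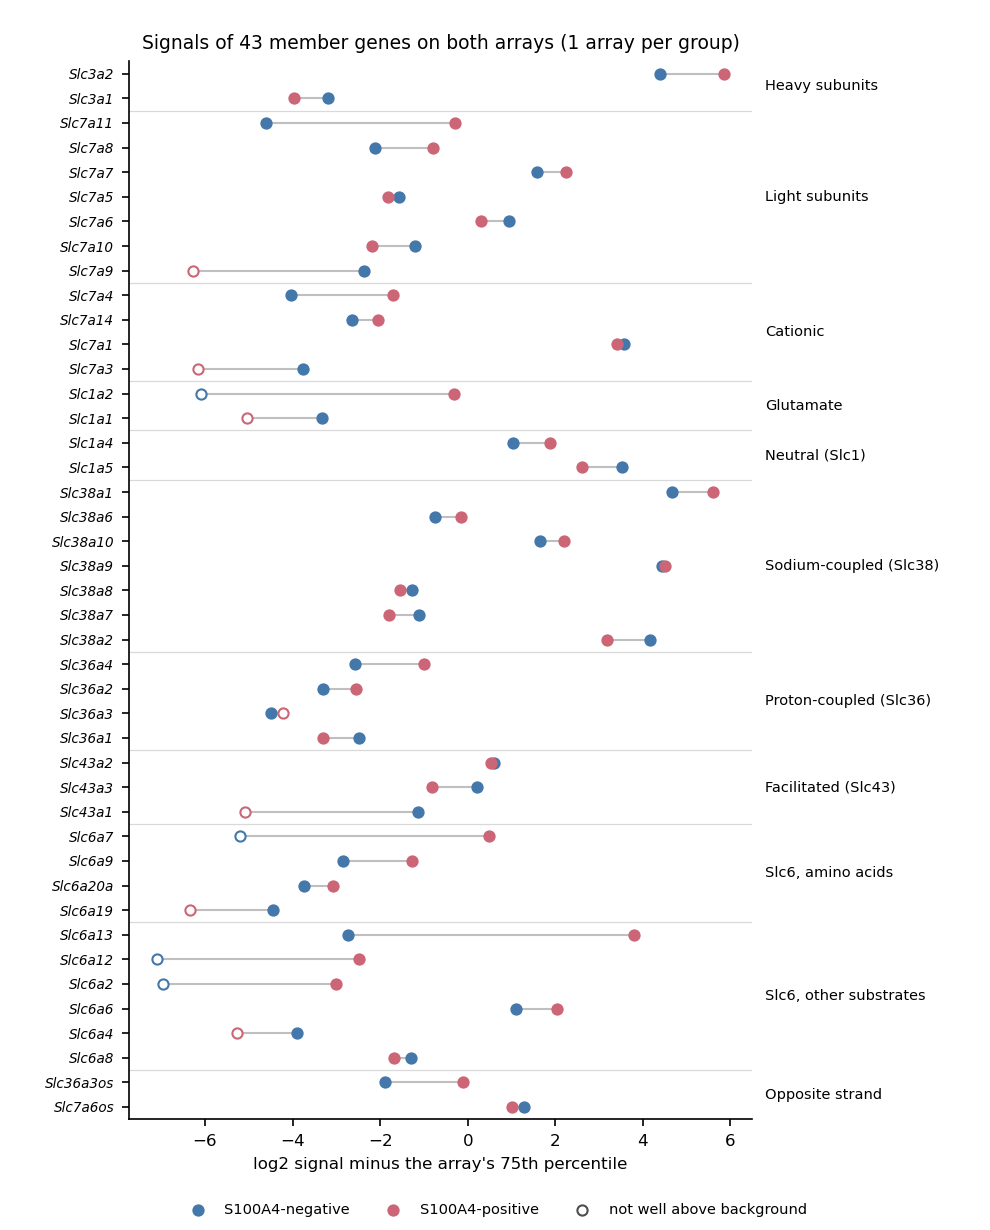
Log2 signal of each of the 43 measured member genes on the S100A4-negative (blue) and S100A4-positive (red) array, minus that array's 75th percentile, at the gene's brightest probe and grouped by role; open circles were not well above background. Each row is read by itself, since probes differ in brightness; the widest gaps between filled circles are those of Slc6a13 and Slc7a11, and 11 genes have an open circle on 1 array.

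The heterodimer system was not uniform in its differences. The heavy subunit Slc3a2 read 9299 (negative) and 16606 (positive) at its brightest probe (chromosome 19, 8782189 to 8782248 on mm9), 2.77-fold higher with a log2 difference of 1.47 ± 0.20. Its other 2 probes gave 1.56 and 0.72, so all 3 probes were higher but the last lay under 2-fold. Its partner Slc7a11, which imports cystine in exchange for glutamate, had a log2 difference of 4.31 ± 0.34. It read 18.3 on the negative array, close to background, and 234.4 on the positive array, 19.9-fold higher (chromosome 3, 50246786 to 50246845 on mm9). A second probe detected on both arrays gave 3.72 ± 0.30, and the third, seen on the positive array only, at least 1.77. With normexp correction the Slc7a11 difference was 2.35. Slc7a11 was thus higher at each of its 3 detected probes, while the probes differed in size.

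The remaining light subunits spread to both sides. Slc7a8, an exchanger of neutral amino acids, read 102.6 and 165.5 on the negative and positive array (log2 difference 1.32 ± 0.21, or 2.50-fold higher). Its other probe was not well above background on either array. Slc7a7, which exports cationic amino acids from macrophages and epithelium, read 1340 and 1364, a log2 difference of 0.66 ± 0.20 that stayed under 2-fold. The leucine carrier Slc7a5, on its single probe, read 151.2 and 81.9 (-0.25 ± 0.22). So the light subunit best known beside CD98 in dividing lymphocytes showed little difference between the fractions where the heavy subunit was higher. Slc7a6, an exchanger of cationic and neutral amino acids, read 851.8 and 352.3 (-0.64 ± 0.20) with -0.53 at its other probe. Slc7a10, a carrier of small neutral amino acids, gave opposite directions at its detected probes. Its brighter probe read 192.2 and 63.2 (-0.97 ± 0.22), while the other was seen on the positive array only, at 44.7 (at least 2.10), so no direction is given for that gene.

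Genes of the epithelial heterodimer had lower values, whose size depended on the background correction. Slc7a9, the light subunit that takes up cystine and dibasic amino acids in kidney and gut, read 86.3 on the negative array. It was not well above background on the S100A4-positive array, at least 3.53-fold lower, and its other probe was not well above background on either array. With normexp correction its bound was -0.28, under 2-fold. Its heavy subunit Slc3a1 read 49.1 and 18.5 (-0.78 ± 0.35), and the difference was -0.066 with normexp and -1.14 with quantile normalization. Slc6a19, the brush border carrier of neutral amino acids, and Slc1a1, a glutamate carrier of epithelium and neurons, were likewise seen on the negative array only. Slc6a19 read 20.6, too dim to give a fold, and Slc1a1 read 44.6, a bound of -0.87 that was -1.27 with quantile normalization and gave no fold with normexp. Enterocyte markers were lower beside these genes: 8 of 10 were at least 2-fold lower, their summed signal in units of the 75th percentile was 16.6 (negative array) and 2.68 (positive array), and Alpi, Sis and Lct were not well above background on the S100A4-positive array. Their part in these differences was not tested.

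Carriers of cationic amino acids showed 1 gene past 2-fold. Slc7a4, a relative of the arginine carriers, read 27.2 (negative) and 87.9 (positive), 5.02-fold higher (2.33 ± 0.29). Slc7a1, the widely expressed arginine and lysine carrier, read 5282 and 3036, a log2 difference of -0.16 ± 0.20 that lay within the software's error of 0. Slc7a14 read 71.3 and 69.2 (0.59 ± 0.22). Slc7a3 was seen on the negative array only, at 32.8, with a bound of -0.42. Slc7a2, the carrier known for arginine supply in activated macrophages, was not well above background on either array at its single probe.

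Among glutamate carriers, Slc1a2 was seen on the positive array only. Known from astrocytes, where it clears glutamate from synapses, it read 231.2 there (chromosome 2, 102617706 to 102617765 on mm9), at least 22.2-fold higher. A second Slc1a2 probe was not well above background on either array, so the value rests on 1 probe. Slc1a3, the other glial carrier, was below that limit at all 3 of its probes, as were Slc1a6 and Slc1a7 at 1 probe each. Macrophage and monocyte markers were higher beside Slc1a2 and Slc7a11: 10 of 10 were at least 2-fold higher, their summed signal was 4.33 (negative array) and 201.4 (positive array), and Fcgr1 and Mrc1 were among those not well above background in the negative cells. Dendritic cell markers (7 of 7 measured, summed signal 6.89 and 99.7), innate lymphoid markers (7 of 8, 16.1 and 383.8) and endothelial markers (4 of 5 measured, 0.583 and 2.47) were higher as well. Fibroblast markers were mixed. Of 7 measured, 4 were at least 2-fold higher and 1 lower, Col1a1 (a bound of -1.16), with Col1a2 at -0.78 and Col3a1 at -0.51. Their median over the 4 seen on both arrays was 0.34. Their summed signal was 19.1 and 77.8, in which Thy1 was by far the brightest gene (8079 and 21373). The part of these lists was not tested.

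The neutral exchangers of the same family went opposite ways under 2-fold. Slc1a5, which brings glutamine into dividing cells, read 5139 and 1755 (-0.92 ± 0.20). Slc1a4, an exchanger of alanine, serine and cysteine, read 906.6 and 1052 (0.85 ± 0.20). Both differences exceeded the software's error, which is for single spots and does not cover variation between mice or sorts. Their own difference from each other was not tested. Slc1a5 was past 2-fold with no scaling (-1.55) and on the spike-in scale (-3.43), and within it under the other 7 alternatives. Slc1a4 was at 0.21 with no scaling and at -1.67 on the spike-in scale, where both genes were below 0.

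**Figure D2:**
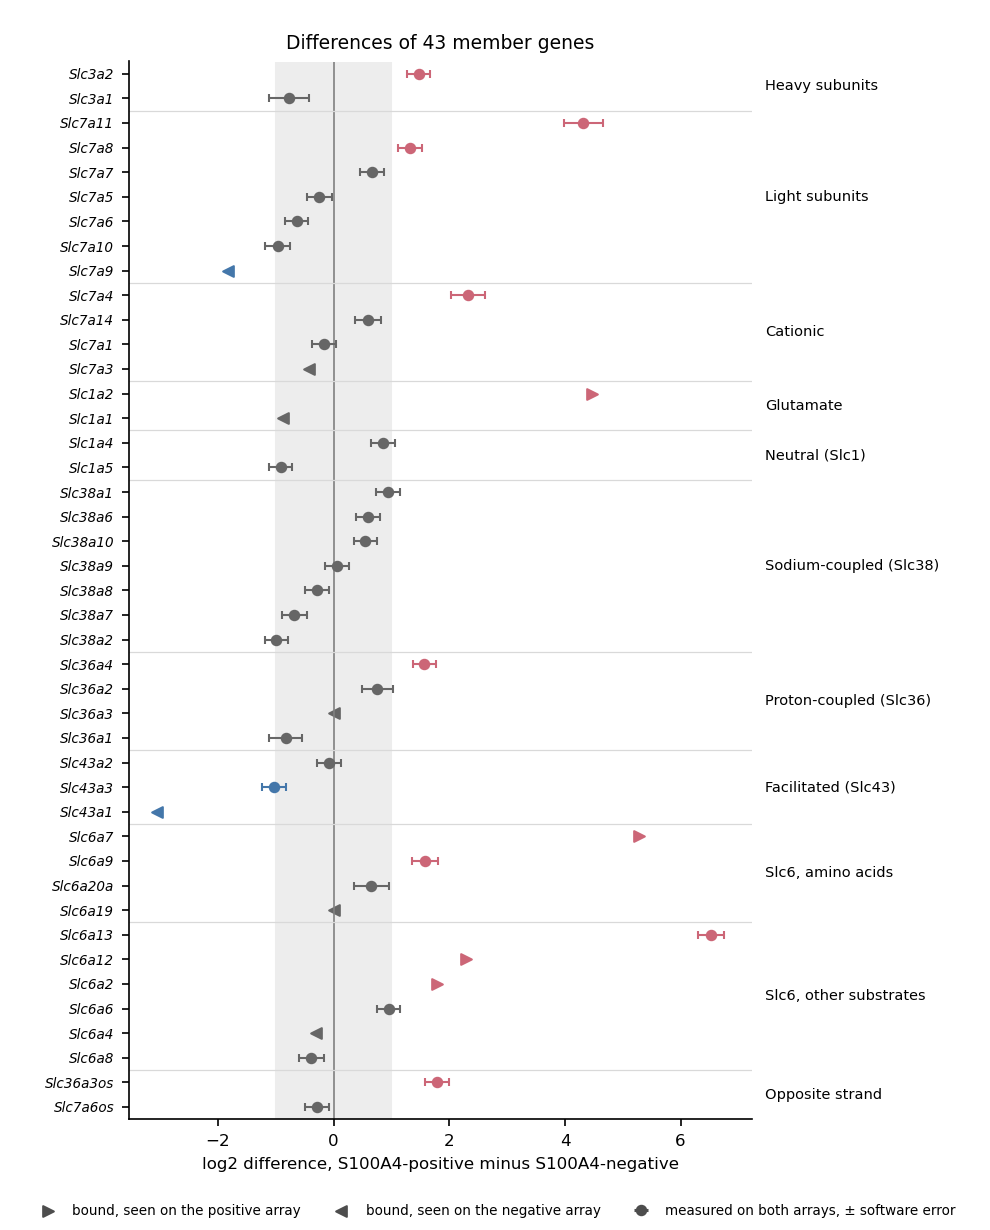
Log2 difference (S100A4-positive minus S100A4-negative) of the 43 measured member genes by role, with the scanner software's error as bars; triangles are bounds and the grey band spans 2-fold either way. Slc6a13 at 6.53 lies farthest to the right and Slc43a1, a bound of -3.05, farthest to the left, while all 7 measured sodium-coupled Slc38 genes lie inside the band on this scale.

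Sodium-coupled neutral carriers (Slc38) had 7 measured members of 11, none past 2-fold in either direction after centring on the 75th percentile. Slc38a1, a glutamine carrier, read 11279 and 13933 at its brightest probe (0.94 ± 0.20), and its 4 probes ranged from 0.48 to 1.21, with a median of 1.03. Its chromosomal neighbour Slc38a2, known to be induced when amino acids run short, read 8030 and 2607 (-0.99 ± 0.20) and -0.53 at the other probe. These adjacent genes on chromosome 15 thus stood on opposite sides of 0, each close to the 2-fold size. Slc38a2 was past 2-fold lower with normexp (-1.14), quantile normalization (-1.11), the deposited value table (-1.10), no scaling (-1.62) and the spike-in scale (-3.51). Slc38a9, the lysosomal arginine sensor upstream of mTORC1, read 9715 and 6508 (0.06 ± 0.20), and its sign turned with normexp (-0.18) and with quantile normalization (-0.10). The other members were Slc38a6 (0.60, with 4 probes from 0.28 to 1.25), Slc38a10 (0.55), Slc38a7, a lysosomal glutamine carrier (-0.68, and -1.31 with no scaling), and Slc38a8 (-0.29, and a bound of -1.60 at a second probe). Slc38a3, Slc38a4, Slc38a5 and Slc38a11 were not well above background on either array.

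The Slc36 family of carriers included 1 gene past 2-fold. Slc36a4 read 74.8 and 142.7, 2.96-fold higher (1.57 ± 0.20). Slc36a1, which exports amino acids from lysosomes, read 80.1 and 29.0 (-0.83 ± 0.28). No direction is given for Slc36a1, since its difference was 0.046 with normexp and past 2-fold lower with quantile normalization (-1.14) and no scaling (-1.47). Slc36a2 read 45.4 and 49.3 (0.75 ± 0.27), while its other probes were not well above background on either array. Slc36a3, seen on the negative array only, was too dim for a fold. The opposite-strand transcript Slc36a3os was brighter on the positive array, with signals of 120.0 and 266.3 (1.78 ± 0.21, 3.44-fold higher). Slc36a1, Slc36a2 and Slc36a3 lie side by side on chromosome 11 and had no common direction.

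The facilitated carriers (Slc43) held 2 of the 3 members that were at least 2-fold lower. Slc43a1, a carrier of large neutral amino acids, read 202.8 on the negative array and was not well above background on the S100A4-positive array, at least 8.30-fold lower (chromosome 2, 84703578 to 84703637 on mm9). Its second probe was also seen on the negative array only, with a bound of -0.88. Slc43a3, known as a purine nucleobase carrier rather than an amino acid carrier, read 515.7 and 162.1, 2.05-fold lower (-1.04 ± 0.21), so that the 2-fold line lies within its error. A dimmer probe gave a bound of -0.11. Slc43a1 and Slc43a3 lie on chromosome 2 with 1 protein-coding gene between them, and both were lower. Slc43a2 read 675.0 and 412.8 (-0.08 ± 0.20). B cell markers were lower beside Slc43a1, in 9 of 9 cases, with a summed signal of 419.9 (negative array) and 20.5 (positive array) and Pax5 not well above background on the latter. Proliferation markers were lower in 10 of 10 cases (120.6 and 17.7). Their part in the lower values of Slc43a1, Slc43a3, Slc1a5 and Slc38a2 was not tested.

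The Slc6 family held the largest differences. Slc6a13, a carrier of GABA, taurine and betaine, read 66.8 (negative) and 3965 (positive), 92.1-fold higher with a log2 difference of 6.53 ± 0.23 (chromosome 6, 121287597 to 121287656 on mm9). Its neighbour on the chromosome, Slc6a12, a carrier of betaine and GABA, was seen on the positive array only, at 51.1 (121315541 to 121315600), at least 4.91-fold higher. Both adjacent genes were higher in the positive fraction, each on a single probe. Slc6a6, the taurine carrier, read 955.2 and 1189 (0.95 ± 0.20), with 0.61 and a bound of 1.11 at its other probes. Slc6a8, which takes up creatine, read 182.4 and 89.8 (-0.39 ± 0.21).

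Slc6 carriers of amino acids and transmitters included further genes seen on 1 array only. Slc6a7, a proline carrier known from neurons, read 404.2 on the positive array, at least 38.8-fold higher, while its other probe was not well above background on either array. Slc6a9, a glycine carrier, read 61.5 and 118.9, past 2-fold higher (1.59 ± 0.22). Slc6a2, the noradrenaline carrier, read 35.7 on the positive array only, at least 3.43-fold higher at 1 of its 2 probes. Slc6a4, the serotonin carrier, read 30.1 on the negative array only, with a bound of -0.30. Slc6a20a, an imino acid carrier of epithelium, read 33.5 and 33.9 (0.65 ± 0.30). Slc6a3, Slc6a5, Slc6a11, Slc6a14, Slc6a15, Slc6a16, Slc6a17, Slc6a18 and Slc6a20b were not well above background on either array, nor were Slc7a12, Slc7a13, Slc7a15, Slc36a1os and Slc6a19os. Slc7a6os read 1093 and 578.5 (-0.28 ± 0.20), beside -0.64 for Slc7a6 on the other strand.

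**Figure D3:**
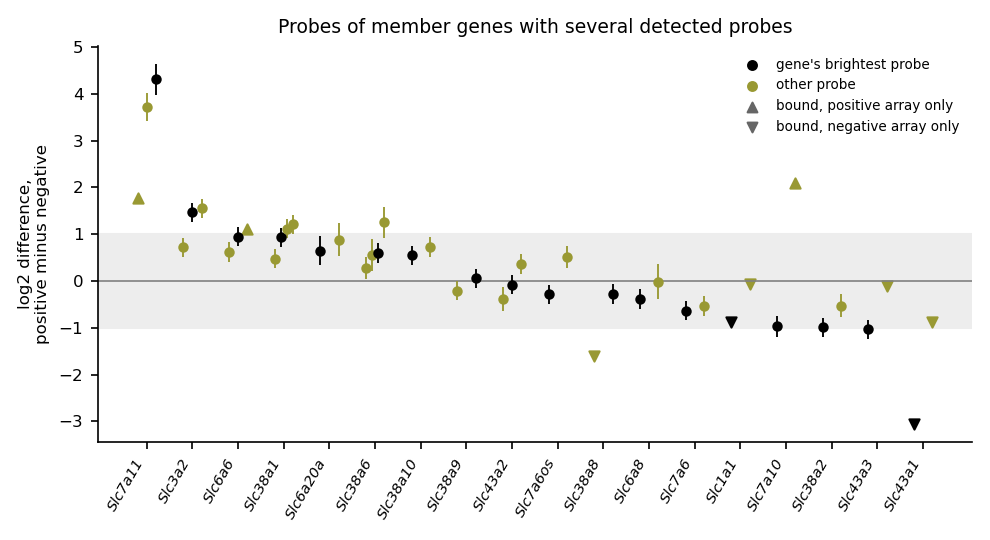
Log2 difference at every detected probe of the 18 member genes with several such probes; black is the brightest probe of the gene and triangles are bounds. In 4 genes (Slc7a11, Slc38a8, Slc7a10 and Slc43a1) a probe lay more than 1 from the brightest one, and in Slc7a10 it pointed the other way past 2-fold.

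Genes that use, sense or respond to amino acids were counted in the same way, from lists chosen with earlier results of these data known. The amino acid response list has 18 genes, of which 3 lay past 2-fold upward and 6 downward, where 21.4% and 17% of all genes did; the median over the 17 seen on both arrays was -0.53. The lower ones were led by Asns, asparagine synthetase (-2.75), Phgdh, which starts serine synthesis (-2.15), and Psat1, of the same pathway (-1.97). The higher ones were the stress gene Nupr1 (6.23), Sesn2, a leucine sensor (1.85), and Cebpb (1.55). Atf4 itself read 62960.3 and 44182 (0.12 ± 0.20). Known ATF4 targets thus stood on both sides of 0, with the carriers Slc7a11 and Slc3a2 higher and the serine and asparagine synthesis genes lower. Carriers did not go one way: Slc38a2, known to be induced when amino acids run short, was at -0.99 and Slc1a5 at -0.92. On the spike-in scale Slc3a2 was at -1.05. The 10 proliferation markers were lower beside the synthesis genes, with a median of -3.29, and their part was not tested.

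In the glutathione list and the arginine and tryptophan list, more genes lay past 2-fold upward than downward, where 21.4% of all genes lay upward and 17% downward. Slc7a11 supplies cystine for glutathione, and among the 15 genes of the glutathione list 6 lay past 2-fold upward and 2 downward. The median was 1.01 over the 11 seen on both arrays. It leaves out the other 4, all seen on the negative array only. Hmox1, which degrades heme, was at 3.56, the glutathione reductase gene Gsr at 2.65 and the peroxidase gene Gpx1 at 2.02, whereas Cth and Ggt1 were at bounds of -1.35 and -1.13. Gclc and Gclm, the subunits of the enzyme that starts glutathione synthesis, were at 0.24 and -0.33. Of 12 measured genes of arginine and tryptophan metabolism, 7 lay past 2-fold upward and 0 downward (median 1.20 over the 11 seen on both arrays). Arg1, arginase 1, was seen on the positive array only, at least 82.2-fold higher, Odc1, which makes polyamines, was at 2.80 and the kynureninase gene Kynu at 1.82. Macrophage and monocyte markers were higher beside both lists (10 of 10, with summed signals of 4.33 and 201.4). So were dendritic cell markers (7 of 7 measured, 6.89 and 99.7), innate lymphoid markers (7 of 8, 16.1 and 383.8) and endothelial markers (4 of 5 measured). The part of these markers was not tested.

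Sensing, glutamine and partner genes were counted likewise, where 21.4% of all genes lay past 2-fold upward and 17% downward. Among 25 genes of amino acid sensing by mTORC1, 2 were higher, Mtor (1.58) and Rheb (1.04), and 7 were lower, led by Sesn3 (-2.40), Mlst8 (-1.67) and Depdc5 (-1.47), with a median of -0.42. Of 10 glutamine and glutamate genes, Gls2, a glutaminase, was at 4.65 and Bcat1, a branched-chain aminotransferase, at a bound of -5.20, and the other 8 lay within 2-fold. Of 9 measured peptide and other carriers 3 were higher, led by Slc15a3, a lysosomal carrier of peptides and histidine (2.97), and 1 lower, Slc25a22, a mitochondrial glutamate carrier (-1.17). The others past 2-fold were Slc15a1 (at least 1.09) and Slc16a10 (1.01). Among the partner genes, Itgb1, an integrin chain that binds CD98, was at 2.32.

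**Figure D4:**
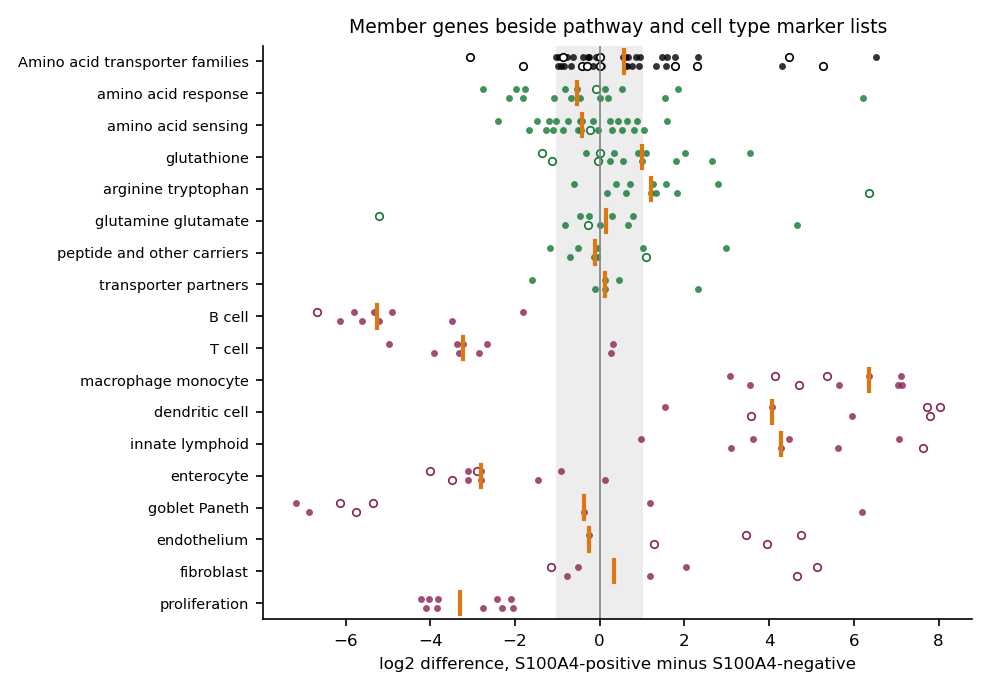
Log2 difference of each measured gene of the transporter families (black), of 7 pathway lists (green) and of 10 cell type or cell division marker lists (purple); open circles are bounds, orange bars are medians over genes measured on both arrays and the grey band spans 2-fold. The transporter genes spread around a median of 0.57, whereas B cell, T cell and proliferation markers lie to the left and macrophage, dendritic and innate lymphoid markers to the right.

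Some of the largest differences kept their direction under every scaling tried. Of the 15 members at least 2-fold apart, 5 stayed past 2-fold on the same side under each of the 9 alternative settings that gave it a value: Slc6a13 (4.01 to 6.54), Slc6a7 (2.76 to 5.69), Slc1a2 (1.96 to 5.77), Slc7a11 (1.80 to 4.33) and Slc43a1 (-5.57 to -1.30). Slc6a7, Slc1a2 and Slc43a1 were seen on 1 array only, so the filter for probes detected on both arrays gave them no value (8 settings each). Every setting reuses the same 2 arrays and is no replicate check. The other 10 fell under 2-fold or changed sign under at least 1 alternative. Slc3a2 was at -1.05 on the spike-in scale and Slc7a8 at -1.19, each on the other side of 0. With normexp, Slc7a8 (0.96), Slc6a2 (0.81), Slc43a3 (-0.59) and Slc7a9 (-0.28) lay under 2-fold, and with no scaling Slc36a4 (0.93), Slc6a9 (0.95), Slc3a2 (0.84) and Slc7a8 (0.69) did.

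**Figure D5:**
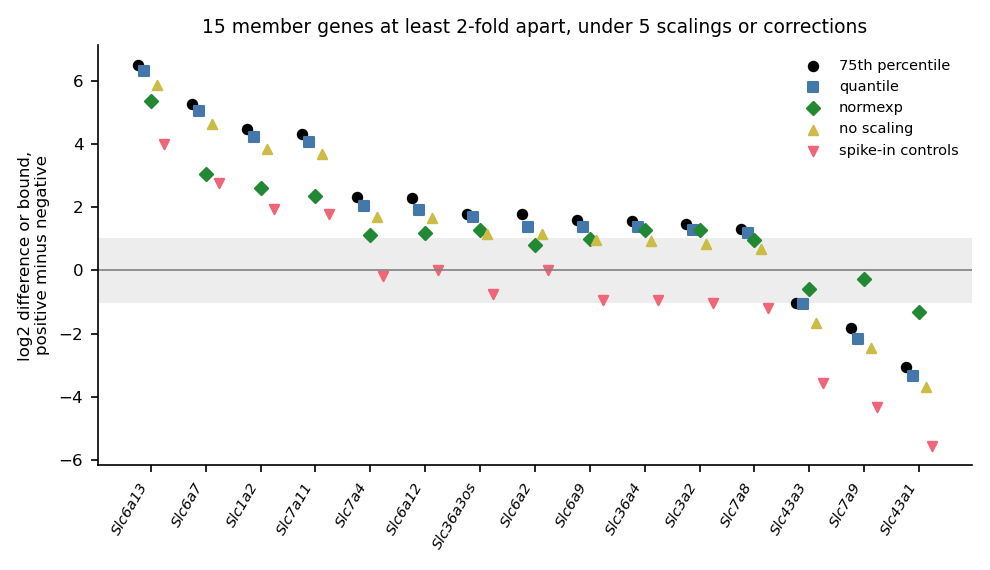
Log2 difference or bound of the 15 member genes at least 2-fold apart, by scaling or background correction; the grey band spans 2-fold. Slc6a13, Slc6a7, Slc1a2 and Slc7a11 stay above the band throughout and Slc43a1 below it, while the spike-in scale moves Slc3a2, Slc7a8, Slc7a4, Slc6a9, Slc36a4 and Slc36a3os below 0.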

How the data were processed

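Total RNA of 1 S100A4-negative and 1 S100A4-positive sample was amplified and labelled with Cy3, per the labels' protocols, and hybridised to 60-base probe arrays (Agilent design 74809). The authors' deposited scanner tables give intensities extracted with Agilent Feature Extraction 10.7.1.1, per the file headers (9.5.1.1, per the submitters' processing notes), background-subtracted and detrended but not normalized between arrays. Deposited flags, another kind of value, were taken as given. The authors' deposited value table, also intensity, has a median of 19.6 in both columns and is on a linear scale; its normalization is not stated in these sources.

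Control and outlier spots were left out, and log2 signals were centred on each array's 75th percentile over 59305 spots. Of a gene's detected probes (well above background on 1 array or both), the one with the highest mean log2 signal was used. Detected spots read a median of 6.80 and 5.35 times the local background on the negative and positive array, and 53.3% and 52.3% of spots were detected; none was saturated. The number of arrays limits the precision. Other genes were named through RefSeq tables (43737 probes named, 12865 not). Probe positions are on mm9; exons were not analysed here.

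No test was possible with 1 array per group. Members, lists and alternatives were chosen with earlier results of these data known. All measured members are named, and up to 3 genes each way per pathway list; a few further list genes were named after their values were seen. Alternatives used limma 3.58.1 in R 4.3.3 (normexp, offset 50), and Python 3.11.15 with numpy 2.4.6, pandas 2.3.3 and matplotlib 3.10.9. The steps were tested on simulated data, with differences planted only at bright, detected probes, so that dim probes and bounds were not checked. A few genes of the families and lists are not reported here by name.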

Additional observations from a re-analysis of the deposited data

How the results depend on the processing

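The count of 12 higher and 3 lower members and the median of 0.57 were recomputed under 9 alternative settings and, chosen after seeing the data, without opposite-strand genes and with bounds in the median. Higher members numbered 4 on the spike-in scale. Lower members numbered 33 on that scale, 13 with no scaling, 8 with quantile normalization, 8 with the deposited value table, 8 with no filter on dim probes (of 66 genes, with 18 higher) and 1 with only probes detected on both arrays (of 32, with 8 higher). The median was -1.95 on the spike-in scale, -0.064 with no scaling, 0.32 with quantile normalization, 0.32 with the value table and 0.056 with bounds included. The causes were not tested, apart from fewer genes (32) under the strict filter. Among the 15 genes past 2-fold, on the spike-in scale Slc7a8 (-1.19), Slc3a2 (-1.05), Slc36a4 (-0.95), Slc6a9 (-0.93), Slc36a3os (-0.73) and Slc7a4 (-0.19) reversed; the members within 2-fold and above 0 also went below 0 there. Of 43 genes, 43 kept their side of 2-fold with the percentile over probes detected on both arrays, 41 with the median over probes, 39 without a filter, 38 each with normexp, quantile normalization and the value table, 29 with no scaling and 7 on the spike-in scale. No paired analysis was possible because each group has 1 array. Signals near background limit the precision: Slc36a1 was at 0.046 with normexp against -0.83.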
